A study of Mus musculus with 4 samples.

Results

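Chemoattractant receptors of myeloid cells were examined on 4 Affymetrix Mouse Genome 430 2.0 arrays of myeloid-derived suppressor cells (MDSCs). The 9 genes were Cxcr2, Fpr1, Fpr2, C5ar1, Ccr1, Ccr2, Cx3cr1, Cxcr4 and Ccrl2, and the members were the probe sets (short oligonucleotides that together measure a transcript) that the platform annotation gives to 1 of these symbols and to no other gene. There were 14 such probe sets of 8 genes, among 45101 probe sets and 18194 genes with a probe set of their own. Fpr1 had none and was not analysed here. All cultures were bone marrow cells of C57BL/6 mice, infected with a lentivirus and grown for 4 days with GM-CSF and IL-6. The groups were kdNC (control shRNA lentivirus), kdLNC (shRNA lentivirus against lncMDSC, the long noncoding RNA that the study calls lnc-C/EBPβ), oeNC (control lentivirus for overexpression) and oeLNC (lentivirus overexpressing lncMDSC), with 1 array each. Neither the age of the mice nor the number pooled in a culture is given in the sources used here, and infected cells were not said to be sorted before the RNA was taken. There were no replicates, so no difference below has a test, an error between replicates or a p-value.

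Most chemoattractant receptors are membrane proteins that couple to G proteins of the Gi family and steer leukocytes up gradients of chemokines, formyl peptides or complement fragments. CXCR2 is the chemokine receptor that guides neutrophils out of the marrow and into inflamed tissue, and CCR2 does the same for inflammatory monocytes. CXCR4 binds CXCL12 and holds granulocytes and progenitors in the marrow. MDSCs are immature myeloid cells of granulocytic and monocytic kinds, and the study asked what the lncRNA does in their differentiation.

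The cultures carried the RNAs of the labelled cell type. S100a8 and S100a9, calprotectin subunits that myeloid cells make in large amounts, lay between 10201 and 11543 on every array. This is near the highest values of the arrays (11778 to 12309), so that their likeness between arrays may reflect the top of the scale. All 8 MDSC markers with a probe set of their own lay above the filter described below. Ly6g, Ly6c1 and Ly6c2, which separate the granulocytic from the monocytic cells, had no probe set of their own. No probe set was matched to lncMDSC, so the knockdown and the overexpression were not checked on the arrays. The array medians lay between 4.17 and 4.24 on the log2 scale. The log2 signal of the 3′ probe set of actin over its 5′ probe set, a sign of RNA integrity, was 1.61 on kdNC and 1.96 to 1.97 on the other arrays. For Gapdh the same measure was 0.51 on kdNC, 0.69 on kdLNC, 0.53 on oeNC and 0.65 on oeLNC. Actin set kdNC apart and Gapdh set the controls apart from the lncRNA arrays, and the part of either in the differences was not tested.

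Differences were taken as log2 of the intensity, kdLNC minus kdNC (the knockdown pair), oeLNC minus oeNC (the overexpression pair) and oeNC minus kdNC (the control arrays). The third comparison shares an array with each of the others. A gene was represented by its brightest probe set. It was counted where its mean log2 value over the 4 arrays was above 4.20, the median of all probe sets, which is an intensity of 18.4. This held for 11345 genes and for all 8 receptors, although 4 of the 14 receptor probe sets lay below it. A difference of 1.5-fold, 0.58 on the log2 scale, was counted. Beside it stands the SD of oeNC minus kdNC over the 500 probe sets nearest in mean level, in which vector, culture and array all differ, so that it stands in for no replicate error. It is wide for the other pairs. Over all 11345 genes the SD was 0.53 between the controls, 0.28 in the knockdown pair and 0.34 in the overexpression pair.

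**Figure D1:**
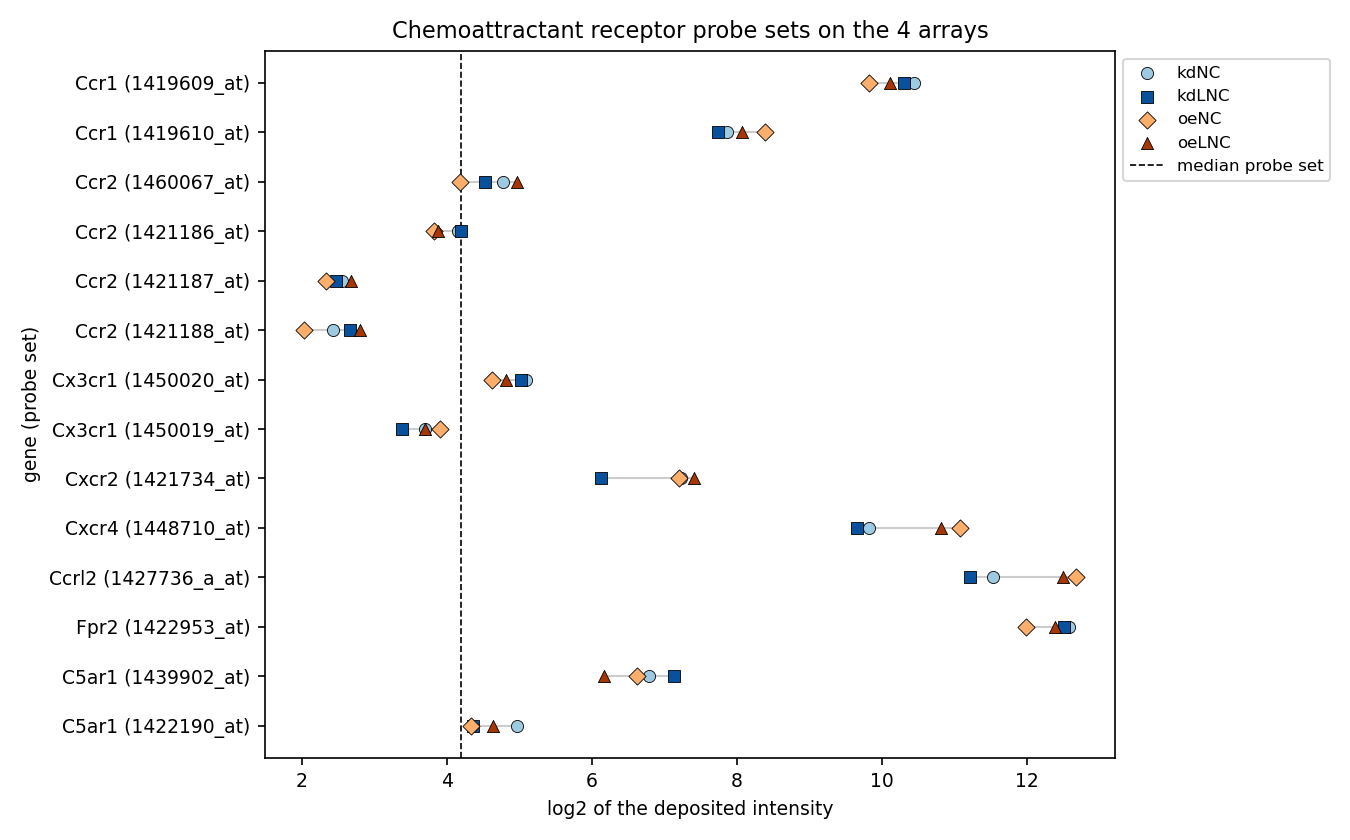
Log2 of the deposited intensity (x axis) of each of the 14 receptor probe sets (y axis) on the 4 arrays (symbols, 1 array each), with a grey line from the lowest to the highest array and the median probe set dashed. Cxcr2 stands lower on kdLNC, with the other 3 arrays close together, and Cxcr4 and Ccrl2 stand higher on both overexpression vector arrays; levels of different probe sets cannot be compared.

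In the knockdown pair, 1 of the 8 receptors, Cxcr2, was at least 1.5-fold lower and 0 were at least 1.5-fold higher. Over all 11345 genes these shares were 1.84% and 2.25%. In the overexpression pair, 1 receptor, Ccr2, was at least 1.5-fold higher and 0 were lower, against 3.23% and 5.26% of all genes. Between the control arrays, Cxcr4 and Ccrl2 were higher and Ccr1, Ccr2 and Fpr2 lower in oeNC, against 9.09% and 12.2% of all genes. The difference between the 2 controls was thus the one in which most receptors passed the fold. The median over the 8 receptors was -0.15 in the knockdown pair, 0.20 in the overexpression pair and -0.32 between the controls. The medians of all genes were -0.05, -0.02 and -0.04.

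The 250 bases before the transcription start of 3 receptors are given here, since Cxcr2 had the largest difference in the knockdown pair, and Cxcr4 and Ccrl2 the largest between the control arrays. They come from RefSeq on GRCm38.p6 and are written 5′ to 3′ on the strand of the gene. The window of Cxcr2 is chr1:74153744-74153993 on the plus strand, that of Cxcr4 is chr1:128592300-128592549 on the minus strand, and that of Ccrl2, before the most upstream of its 3 listed starts, is chr9:111057519-111057768 on the minus strand. Capitals mark a match to the NF-kB motif.
Cxcr2: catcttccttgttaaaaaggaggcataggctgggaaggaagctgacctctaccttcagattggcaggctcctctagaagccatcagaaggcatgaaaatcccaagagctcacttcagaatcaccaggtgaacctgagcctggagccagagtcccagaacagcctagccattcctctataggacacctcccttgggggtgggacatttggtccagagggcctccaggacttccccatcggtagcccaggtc
Cxcr4: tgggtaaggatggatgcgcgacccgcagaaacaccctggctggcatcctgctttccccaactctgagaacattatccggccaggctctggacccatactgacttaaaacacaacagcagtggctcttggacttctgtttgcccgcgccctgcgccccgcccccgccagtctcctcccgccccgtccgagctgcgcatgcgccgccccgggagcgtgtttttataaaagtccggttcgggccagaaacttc
Ccrl2: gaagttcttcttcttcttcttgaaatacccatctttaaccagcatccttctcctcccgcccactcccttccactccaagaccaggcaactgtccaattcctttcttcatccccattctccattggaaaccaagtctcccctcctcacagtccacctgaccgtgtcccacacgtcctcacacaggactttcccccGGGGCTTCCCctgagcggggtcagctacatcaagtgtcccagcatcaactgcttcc
The C/EBP motif, searched as TTGCNNAA on both strands, was in 0 of the 11 windows of the 9 receptor genes and in 9.56% of 32851 windows of the same length from all genes searched. The NF-kB motif was in 2 of the 11, against 7.25%. These were the window of Ccrl2 shown above, where the match begins 56 bases before the start, and that of Ccr1. The windows before the other Ccrl2 starts overlap each other and held no match, so that the 11 are not all separate sequences. A match is a run of letters and not a measured binding site.

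CXCR2 is the receptor for the ELR+ CXC chemokines. Its probe set read 150.9 on kdNC, 70.3 on kdLNC, 147.4 on oeNC and 171.0 on oeLNC. kdLNC was the low array, and the other 3 lay within 0.21 on the log2 scale of each other. Cxcr2 was 2.15-fold lower in kdLNC than in kdNC, a log2 difference of -1.10 where the SD of the control difference at this level was 0.58. In the overexpression pair it differed by 0.21 and between the controls by -0.03, both inside that SD. It has 1 probe set, so no other probe set bears on the value. In bulk RNA of this kind, fewer cells of a type and less RNA per cell cannot be told apart.

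RNAs of mature neutrophils and of eosinophils were lower in kdLNC than in its control. Going from kdNC to kdLNC, 11 of 19 mature neutrophil markers above the filter lay at least 1.5-fold below the control, 1 lay above it by that much and 7 lay between. Their median log2 difference was -0.76. The summed intensity of the list was 47126 on kdNC, 33591 on kdLNC, 50442 on oeNC and 47931 on oeLNC, so that kdLNC was the low array here too. Ngp, a neutrophil granule protein, read 8020, 3903, 7915 and 7667 in that order of arrays. Lcn2, the granule lipocalin, read 9245, 10015, 10484 and 9643, and was not lower. It lay near the highest values of the arrays (11778 to 12309), and whether signal that high still follows the amount of RNA was not tested. Of 16 monocyte markers, 1 was higher and 0 were lower in the knockdown pair, with summed intensities of 21304 to 22375 over the 4 arrays. Of 5 eosinophil markers above the filter, 4 were lower in that pair and 0 higher, with a median of -1.07. Ccr3, among the 4, passed the filter only through kdNC, its high array, so that its count is a description of low signal. The summed intensity of the eosinophil list was 2699 on kdNC, 1422 on kdLNC, 1294 on oeNC and 1211 on oeLNC, so that here kdNC was the high array. The part of the neutrophil and eosinophil markers in the value of Cxcr2 was not tested.

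The genes whose 4 log2 values lay closest to those of Cxcr2, after each gene was centred on its own mean, were Tinagl1 at a Euclidean distance of 0.13, Tnfrsf18 at 0.23, Ngp at 0.24, Itgb2l at 0.24 and Tbc1d8 at 0.26. Ngp and Itgb2l are in the neutrophil list. Within 2 times the distance of the fifth lay 98 of the 11344 other genes, so that many genes share this shape over 4 arrays. Likeness over so few arrays is a description only.

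The chemokines that bind CXCR2 did not share 1 order of arrays. Cxcl1 read 332.6 on kdNC, 809.0 on kdLNC, 857.7 on oeNC and 470.7 on oeLNC. Cxcl3 read 1627, 4374, 4792 and 2672 in the same order. Both were lowest on kdNC and highest on oeNC. The log2 difference of Cxcl1 was 1.28 in the knockdown pair and -0.87 in the overexpression pair, and its other probe sets above the filter gave 0.68 to 1.75 and -1.05 to -0.45. Cxcl3 differed by 1.43 and -0.84. The corresponding values were 0.33 and -0.46 for Cxcl2, which stayed inside 1.5-fold. Ppbp, whose product is the platelet chemokine CXCL7, read 64.4, 44.3, 78.0 and 61.9 and was lowest on kdLNC, with differences of -0.54 and -0.33. Mif, which encodes a further ligand of CXCR2 and CXCR4, read 2243, 1805, 2604 and 2956 and was lowest on kdLNC as well. Between the control arrays Cxcl1 differed by 1.37 and Cxcl3 by 1.56, which is at least as large as the differences in the knockdown pair. kdLNC thus held the lowest Cxcr2 value of the 4 arrays, with Cxcl1 and Cxcl3 higher than on its own control but no higher than on oeNC, and with Ppbp and Mif lower than on the other 3 arrays.

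**Figure D2:**
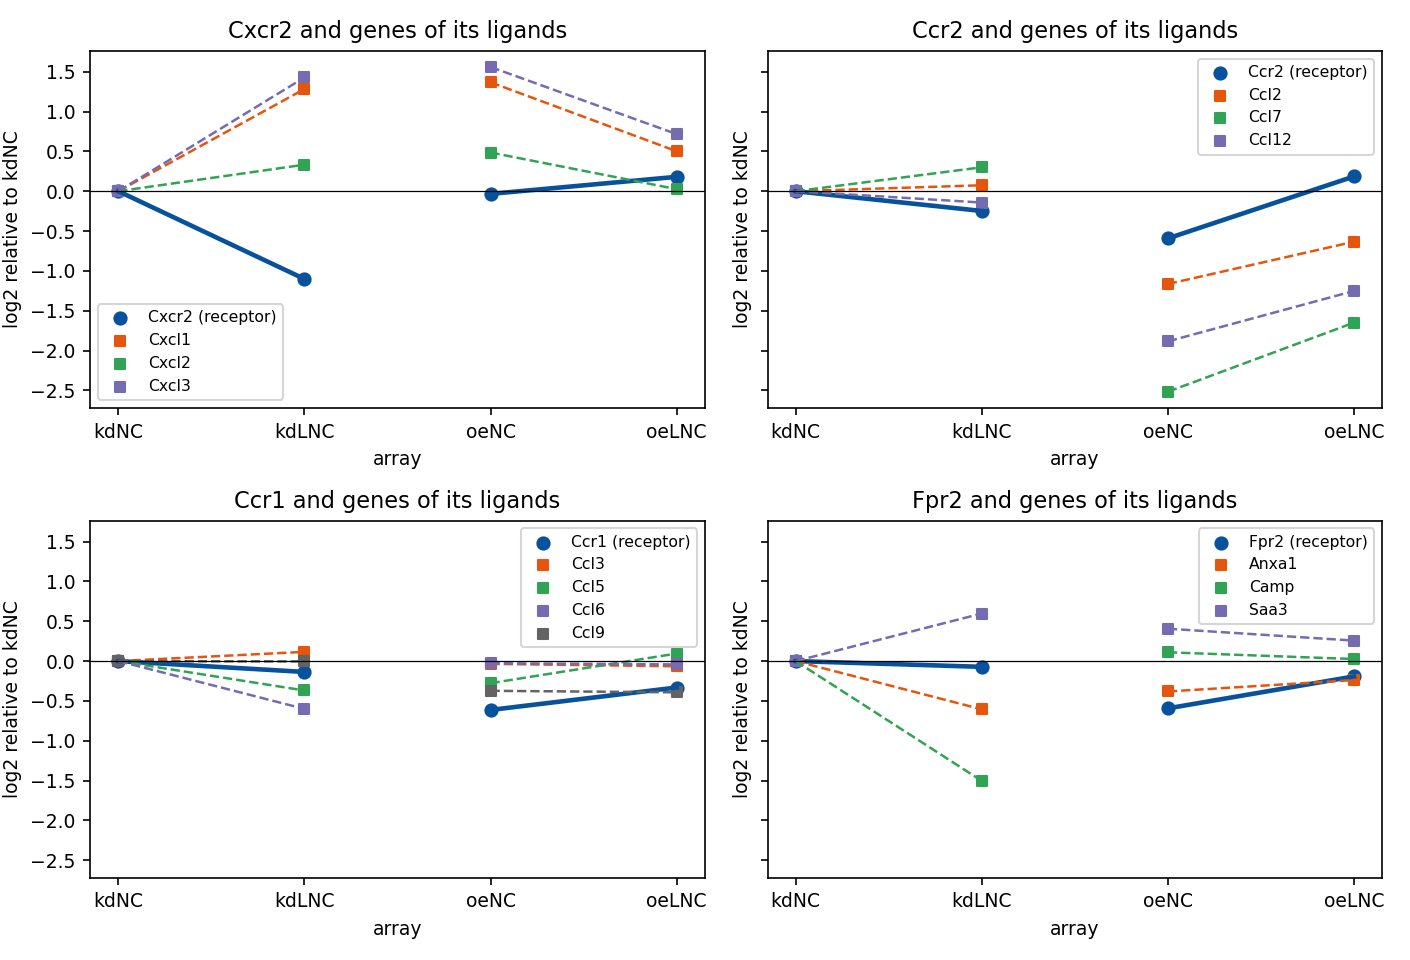
Log2 intensity relative to kdNC (y axis) on the 4 arrays (x axis) for 4 receptors (thick lines, circles) and genes of known ligands (dashed lines, squares), with a line joining the 2 arrays of each vector. Cxcl1 and Cxcl3 are higher on kdLNC and oeNC than on kdNC, and Ccl2, Ccl7 and Ccl12 are lower on both overexpression vector arrays.

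FPR2 senses formylated and other peptides and lipids, and C5AR1 senses the complement fragment C5a. Fpr2 read 6125 on kdNC, 5825 on kdLNC, 4060 on oeNC and 5359 on oeLNC. oeNC was the low array, 1.51-fold below kdNC (log2 -0.59, SD 0.45). The knockdown pair differed by -0.07 and the overexpression pair by 0.40, both inside the SD.

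Among genes of FPR2 ligands, Camp, whose product is the cathelicidin peptide, read 5629, 1986, 6075 and 5730, and its log2 difference in the knockdown pair was -1.50. Camp is also one of the neutrophil markers above. Anxa1, which encodes annexin A1, differed by -0.61 in that pair, and its other probe set by -0.56. Saa3, an acute-phase serum amyloid, differed by 0.60. The 3 ligand genes were not shifted one way, and none of them passed 1.5-fold in the overexpression pair, where they differed by -0.08, 0.14 and -0.15.

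The 2 probe sets of C5ar1 disagreed. The brighter one read 110.4 on kdNC, 140.1 on kdLNC, 98.5 on oeNC and 72.2 on oeLNC. The other read 31.2, 20.6, 20.2 and 24.9. The highest array was kdLNC for the first and kdNC for the second. In the knockdown pair they gave log2 differences of 0.34 and -0.60, and in the overexpression pair -0.45 and 0.30. No direction can be given for C5ar1 from these data. Hc, the gene of complement C5, was below the filter.

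CCR2 is the receptor for CCL2, CCL7 and CCL12. Its brightest probe set read 27.5 on kdNC, 23.2 on kdLNC, 18.3 on oeNC and 31.3 on oeLNC, near the median of all probe sets. The highest array was oeLNC and the lowest oeNC. Ccr2 was 1.71-fold higher in oeLNC than in oeNC (log2 0.78, SD 0.52), while the knockdown pair differed by -0.25. Against kdNC, oeNC was lower by a log2 difference of -0.59, so that oeLNC differed from both kd arrays by less than from its own control. The other 3 probe sets of Ccr2 were below the filter on the mean, with intensities from 4.09 to 18.3. Their differences in the overexpression pair were 0.06, 0.35 and 0.77. All 4 probe sets pointed upward there, but with 3 of them below the filter the shared sign is a description of low signal only. In the knockdown pair the 4 were split, from -0.25 to 0.23. The genes closest to Ccr2 over the 4 arrays were Tmem71 at 0.06, Gm26588 at 0.08, Tssk6 at 0.09, Aqp11 at 0.10 and Mamstr at 0.11, with 61 genes inside 2 times the fifth distance. Apart from Tmem71 these genes had low signal too, with intensities from 14.6 to 27.6.

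The ligand genes of CCR2 lay far apart between the vectors. Ccl2 read 5291 on kdNC, 5572 on kdLNC, 2361 on oeNC and 3410 on oeLNC. Ccl7 read 2035, 2506, 355.8 and 648.8, and Ccl12 read 1392, 1261, 377.3 and 584.8. All 3 were lower on both overexpression vector arrays than on both kd arrays, and oeLNC lay between oeNC and the kd arrays. In the overexpression pair the log2 differences were 0.53 for Ccl2, 0.87 for Ccl7 and 0.63 for Ccl12. In the knockdown pair they were 0.07, 0.30 and -0.14. Ccl8, a further CC chemokine, differed by 0.77 in the knockdown pair and by 0.79 in the overexpression pair, the same sign in both.

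CCR1 binds CCL3, CCL5, CCL6 and CCL9 and is found on neutrophils and monocytes. Its brightest probe set read 1391 on kdNC, 1266 on kdLNC, 909.4 on oeNC and 1105 on oeLNC. The other probe set read 234.2, 214.4, 336.2 and 268.3. The oe arrays were the low ones by the first and the high ones by the second, so that Ccr1 had no common direction between the vectors (log2 -0.61 and 0.52 between the controls). The same held in the overexpression pair, with 0.28 and -0.33. In the knockdown pair the probe sets gave -0.14 and -0.13. Ligand genes of CCR1 differed in that pair by 0.12 for Ccl3, -0.37 for Ccl5, -0.60 for Ccl6 and by less than 0.01 for Ccl9, so that Ccl6 alone of the 4 passed 1.5-fold. With overexpression 0 of these 4 did.

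CX3CR1, the fractalkine receptor, marks patrolling monocytes and many macrophages. The brighter probe set of Cx3cr1 read 34.2 on kdNC, 32.7 on kdLNC, 24.7 on oeNC and 28.3 on oeLNC. The other, below the filter, read 13.01, 10.5, 15.0 and 13.01. Both had low signal, and no difference of either passed 1.5-fold. The brighter one differed by -0.06 in the knockdown pair, 0.19 in the overexpression pair and -0.47 between the controls, where the SD was 0.50. Cx3cl1, which encodes fractalkine, read 37.2 to 45.0 over the 4 arrays.

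CXCR4 is carried by most marrow leukocytes. Cxcr4 read 905.4 on kdNC, 811.9 on kdLNC, 2155 on oeNC and 1799 on oeLNC. Both oe arrays lay above both kd arrays, and the 2 arrays of a vector lay close together. oeNC was 2.38-fold above kdNC (log2 1.25, SD 0.54). Within the pairs the log2 differences were -0.16 and -0.26, below 0 in both and inside the SD. The gene of its chemokine, Cxcl12, was below the filter in these cultures. Mif differed by -0.31 in the knockdown pair and 0.18 in the overexpression pair.

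CCRL2 is an atypical receptor that binds chemerin and presents it to other cells without signalling by G proteins. Ccrl2 read 2960 on kdNC, 2372 on kdLNC, 6584 on oeNC and 5769 on oeLNC. The order of the arrays was that of Cxcr4, with oeNC 2.22-fold above kdNC (log2 1.15, SD 0.45) and differences of -0.32 and -0.19 within the pairs. Ccrl2 had the largest range of the 8 receptors over the 4 arrays, 1.47 on the log2 scale. Its probe set is of a kind that recognises several transcripts of 1 gene. The genes closest to it were Acvrl1 at 0.02, Auh at 0.03, Asph at 0.05, Ccng2 at 0.08 and Ubxn7 at 0.10, with 29 genes inside 2 times the fifth distance. Rarres2, the chemerin gene, read 28.5 to 30.0 on all arrays.

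**Figure D3:**
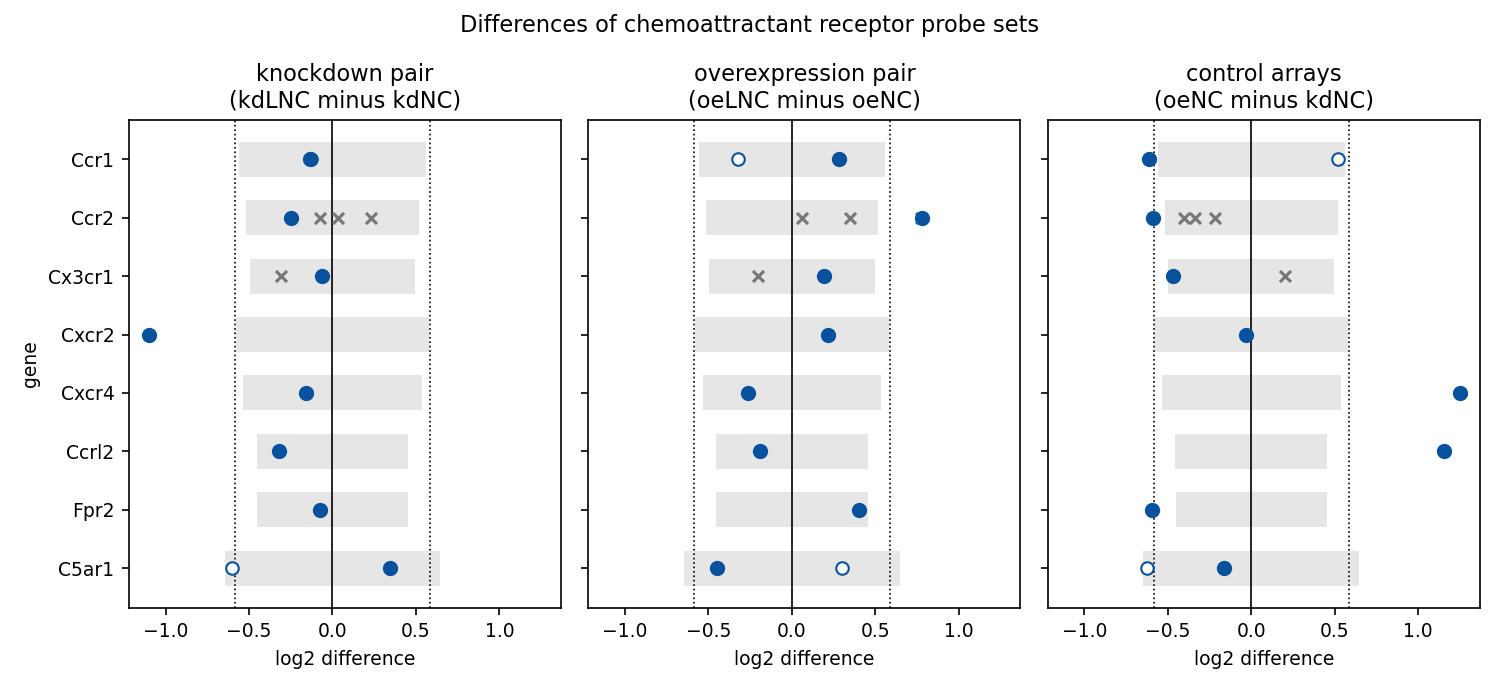
Log2 difference (x axis) of each receptor (y axis) in the knockdown pair, the overexpression pair and between the control arrays. Filled circles are the brightest probe sets, open circles other probe sets above the filter and crosses those below it; grey bars are plus and minus 1 SD of the control difference at that level and dotted lines mark 1.5-fold. By the brightest probe sets, Cxcr2 stands outside its bar in the knockdown pair and Ccr2 in the overexpression pair, and 5 receptors do between the controls. There the bar is the SD of that same comparison, so that some genes lie outside it by construction. The share of all genes outside was not counted. Ccr1, among the 5, has another probe set of the opposite sign.

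Taking the brightest probe sets, both oe arrays lay above both kd arrays for Cxcr4 and Ccrl2, below them for Ccr1, Cx3cr1, Fpr2 and C5ar1, and overlapped with them for Ccr2 and Cxcr2. The other probe sets did not bear this out for Ccr1, where the oe arrays lay above, or for Cx3cr1 and C5ar1, where the arrays overlapped. Those of Ccr2 were split between below and overlap. Over all 11345 genes the oe arrays lay above in 26.2% and below in 32.1%, so that this separation was common on these arrays. The vector, the culture and the array cannot be told apart in it. Markers of cells other than MDSCs differed in the same comparison. Between the controls, 6 of 7 B cell markers, 5 of 6 mast cell and basophil markers and 4 of 5 eosinophil markers above the filter were at least 1.5-fold lower in oeNC. The eosinophil count again holds Ccr3, which passed the filter only through kdNC. The summed intensity of the B cell markers was 4039 to 4193 on the kd arrays and 1809 to 1877 on the oe arrays. That of the eosinophil markers was 2699 on kdNC and 1211 to 1422 on the other 3 arrays. Other lists went the opposite way. Of 6 macrophage markers, 3 were higher in oeNC and 0 lower (median 0.42), and of 19 mature neutrophil markers, 5 were higher and 0 lower (median 0.11). The part of these lists in the receptor values was not tested.

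By the brightest probe sets, the differences in the knockdown pair and the overexpression pair had opposite signs for 6 of the 8 receptors. They had the same sign for Cxcr4 and Ccrl2. The share of all genes with opposite signs was not counted, so that the 6 is a description only. The other probe set had the same sign in both pairs for Ccr1 (-0.13 and -0.33) and Cx3cr1 (-0.31 and -0.20, below the filter). That of C5ar1 had opposite signs (-0.60 and 0.30), and those of Ccr2, all below the filter, were mixed. The signs count differences below 1.5-fold too, and 7 of the 8 receptors lay inside 1 SD of the control difference in the knockdown pair and 7 in the overexpression pair. The share of all genes inside was not counted. That SD is wider than the spread of all genes within either pair (0.28 and 0.34). C5ar1 (0.34) and Ccrl2 (-0.32) in the knockdown pair, and Fpr2 (0.40) and C5ar1 (-0.45) in the overexpression pair, lay beyond that spread. The probe sets of a gene differed in sign for 2 of the 4 genes with several probe sets in the knockdown pair, 3 in the overexpression pair and 2 between the controls. No receptor passed 1.5-fold in both pairs.

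Many of the other chemoattractant receptors had low signal. Of 33 listed, 26 could be measured, 14 of them fell below the filter and 12 above it. Lower in the knockdown pair were 2 of the 12, Ccr3, the eotaxin receptor of eosinophils (44.7, 21.0, 13.6 and 21.3 on kdNC, kdLNC, oeNC and oeLNC), and Ccr9, the receptor for CCL25 (227.0, 108.6, 88.4 and 71.2). kdNC was the high array for both. With overexpression, Ackr1 (18.4, 16.6, 15.8 and 28.5, a log2 difference of 0.85) and Ccr3 (0.64) were higher. Ackr1 passed the filter only through oeLNC, its high array, and Ccr3 only through kdNC, so that neither count is more than a description of low signal. Cmklr1, the signalling receptor for chemerin, was lower (127.2, 184.6, 164.4 and 93.0, a difference of -0.82). C3ar1, which encodes the receptor for the complement fragment C3a, read 1065, 940.7, 866.4 and 1113 and stayed inside 1.5-fold in every comparison by its brightest probe set, although its other probe sets gave -1.04 to -0.94 between the controls. The medians of the 12 were -0.16, 0.24 and -0.25 in the knockdown pair, the overexpression pair and between the controls.

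Of 26 ligand genes, 21 passed the filter. Higher in the knockdown pair were 5 (Cxcl3, Cxcl1, Pf4, Ccl8 and Saa3), while 3 were lower (Camp, Anxa1 and Ccl6) and 13 lay between. With overexpression 4 were higher (Ccl7, Ccl8, Ccl4 and Ccl12), 3 were lower (Cxcl1, Cxcl3 and Pf4) and 14 lay between. Those higher with overexpression were all CC chemokines, and those lower were all CXC chemokines (Pf4 encodes CXCL4). Each of these genes differed with the opposite sign between the controls, and oeLNC lay between oeNC and kdNC. The 2 comparisons share oeNC with opposite signs and the genes were picked by the first, so that an opposite sign is favoured in advance. Between the controls the CC genes ranged from -2.52 (Ccl7) to -1.28 (Ccl8) and the CXC genes from 1.26 (Pf4) to 1.56 (Cxcl3). Of all 21 ligand genes, 3 were higher and 5 lower in oeNC than in kdNC. The ligand medians were 0.00, -0.02 and -0.04, near those of all genes.

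Of 32 genes that carry the signal of these receptors (G protein subunits, kinases, Rac activators, arrestins and RGS proteins), 30 were above the filter and 27 of them stayed inside 1.5-fold in the knockdown pair. Arrb1, an arrestin that desensitises receptors, was lower there (log2 -0.69), with kdNC its high array (78.6, 48.6, 37.6 and 48.2 on kdNC, kdLNC, oeNC and oeLNC). Vav1, a Rac activator, was higher (0.59, and 0.64 by its other probe set), as was Ric8a, a chaperone of G protein alpha subunits (0.83). The other 3 probe sets of Ric8a above the filter gave -0.18 to 0.16, so that its value rests on 1 probe set. In the overexpression pair Gnai3, a Gi alpha subunit, was higher (0.61) and Ric8a lower (-0.63), and 28 lay between. Gnai3 read 953.3, 820.1, 535.7 and 819.9, so that oeNC was its low array. Other probe sets above the filter passed 1.5-fold for some genes counted between. Examples are Vav1 (0.96) in the overexpression pair and Rgs19 (0.91 in the knockdown pair, -0.77 in the overexpression pair). Gnai2, the main Gi alpha subunit of leukocytes, read 2385 to 2764 on the 4 arrays.

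**Figure D4:**
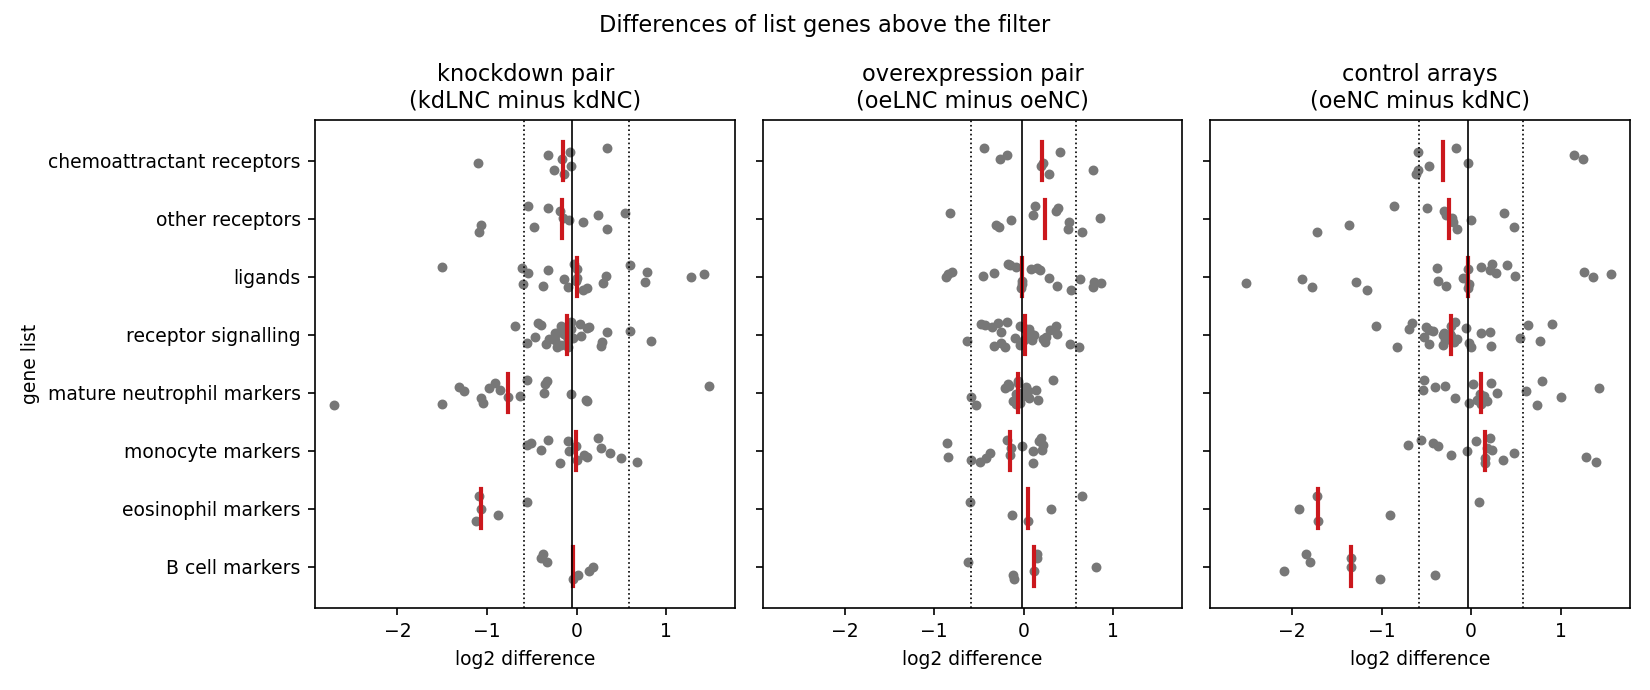
Log2 differences (x axis) of the genes above the filter in 8 lists (y axis), 1 point a gene, in the knockdown pair, the overexpression pair and between the control arrays. Red bars are list medians, the solid line is the median of all genes and dotted lines mark 1.5-fold; the eosinophil and mature neutrophil lists lie lower in the knockdown pair, and the eosinophil and B cell lists lie lower between the controls.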

How the data were processed

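RNA of 4 MDSC cultures was measured on Affymetrix Mouse Genome 430 2.0 arrays, 1 array per group, grouped by the submitters' labels. The authors deposited normalized intensity values for 45101 probe sets on a linear scale. Their processing notes name RMA, with settings, chip definition and genome build not given in the sources used here. A step of this kind pulls the arrays toward a common distribution, and precision is limited by having 4 arrays. No background estimate was used, so signal over background is unknown.

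The log2 values were analysed with Python 3.11.15, numpy 2.4.6, pandas 2.3.3, statsmodels 0.14.6 and matplotlib 3.10.9. Only the 34958 probe sets annotated to 1 symbol were used, leaving out 932 with several symbols and 9211 without one. All receptors with every probe set are named. List genes named are those at least 1.5-fold different in a pair (at most 6 per pair by rule), the brightest markers and the 5 nearest patterns; known ligands of a receptor, C3ar1 and Gnai2, and Saa3, Ccl6 and Ccl12 beyond the 6, were chosen after their values were seen. Members and lists were chosen with earlier results of these data known. The counting steps were checked on simulated data with less noise than these arrays, so that the check bears on the arithmetic and not on the calls made here. limma, which the methods name, could not be fitted with 1 array per group. Alternatives were centring, quantile and loess scaling, other probe set rules, filters and thresholds, an added constant, and the mean of both controls.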

Additional observations from a re-analysis of the deposited data

How the results depend on the processing

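No paired analysis was possible because there was only 1 array for a group, nor could an array be left out. Over the alternatives 54 counts of receptors kept within 1.5 times their value and 10 did not, and no difference past 1.5-fold changed its sign, although several smaller ones did. The log2 difference of Cxcr2 in the knockdown pair was -1.10 to -0.95, that of Ccr2 in the overexpression pair 0.47 to 0.78, and those of Cxcr4 and Ccrl2 between the controls 1.24 to 1.29 and 1.08 to 1.19. With the mean of both controls as the control, the receptors lower in the knockdown pair went from 1 to 3 (Cxcr2, with Cxcr4 at -0.78 and Ccrl2 at -0.90), which follows from the higher values of both genes on oeNC. In the overexpression pair Cxcr4 and Ccrl2 were then 0.37 and 0.39. The count of receptors higher in the overexpression pair, Ccr2 alone, became 0 with the mean of a gene's probe sets, with the filter at the 70th percentile, with a 2-fold threshold, with 16 added before log2 and with the mean of both controls. Between the controls, the receptors lower in oeNC went from 3 to 0 with each array centred on its median, to 1 (Fpr2) with the mean of a gene's probe sets and to 0 at 2-fold. Leaving out probe sets marked as matching more than 1 transcript or gene, those higher went from 2 to 1 (Cxcr4), because Ccrl2 has no other probe set. With the mean of its probe sets Ccr1, whose second probe set has the opposite sign, was -0.05 between the controls, and Ccr2 was -0.39. Without the filter the medians of the other receptors were -0.03, 0.12 and -0.06. No scaling moved the median of all genes by more than 0.1.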

Other observations

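The values of the other receptors that were lower in the knockdown pair are set here beside markers of cells known to carry them. Ccr3 is itself in the eosinophil list and passed the filter only through kdNC. Ccr3 read 44.7 on kdNC and 21.0 on kdLNC, and the eosinophil granule genes read 1722 and 934.7 for Prg2, 430.8 and 197.8 for Epx and 370.7 and 176.6 for Prg3. On oeNC and oeLNC these genes were at or below the kdLNC values, apart from Ccr3 on oeLNC, which read 21.3. Siglecf, the remaining eosinophil marker above the filter, did not share this order. It read 113.1 on kdNC, 77.0 on kdLNC, 120.5 on oeNC and 79.5 on oeLNC, and was named after its value was seen. Ccr9, which plasmacytoid dendritic cells carry, read 227.0 on kdNC, 108.6 on kdLNC, 88.4 on oeNC and 71.2 on oeLNC, and Siglech, a marker of these cells, read 54.9 on kdNC, 27.8 on kdLNC, 41.1 on oeNC and 41.0 on oeLNC. Both were highest on kdNC, but Ccr9 was lower on the oe arrays than on kdLNC and Siglech was higher. Siglech was the 1 of 6 dendritic cell markers above the filter that was 1.5-fold lower in this pair, and was named after its value was seen. Whether the cells or the RNA in each cell differed was not tested.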
